A study of Moricandia moricandioides and Moricandia arvensis and Moricandia suffruticosa with 11 samples.

Results

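The circadian clock genes described here are 10 Arabidopsis loci to which leaf reads of 3 *Moricandia* species were assigned: the 5 pseudo-response regulators PRR9 (AT2G46790), PRR7 (AT5G02810), PRR5 (AT5G24470), PRR3 (AT5G60100) and TOC1 (AT5G61380), the evening complex genes ELF3 (AT2G25930), ELF4 (AT2G40080) and LUX (AT3G46640), and GI (AT1G22770) and ZTL (AT5G57360). They were taken by identifier from the 33602 gene models in the gene table, a rule that names the loci and uses none of their values, although it was set with earlier results of these data known. All 10 had reads, and 9 of them passed the filter on low counts. ZTL did not.

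In Arabidopsis the pseudo-response regulators are transcriptional repressors whose transcripts peak one after another through the day, PRR9 first after dawn, then PRR7, PRR5 and PRR3, and TOC1 towards dusk. PRR9, PRR7, PRR5 and TOC1 repress the morning genes CCA1 and LHY, which in turn repress genes of the evening. ELF3, ELF4 and LUX form the evening complex, a repressor active around dusk and in the night, while the protein of GI stabilises ZTL, a blue light receptor and F-box protein that marks TOC1 and PRR5 for degradation.

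Transcripts were measured in mature leaves of *M. arvensis* line MOR1 (4 plants) and *M. suffruticosa* (3 plants), both with C3–C4 intermediate photosynthesis, and of 4 plants of the C3 species *M. moricandioides*. No genotype change or treatment is named for any plant. All were grown in the same climate chamber with 12 h of light a day, and were not yet reproductive. Leaves were frozen about 2 h after the light came on, and harvest times of single plants are not given. Each species is represented by 1 seed source, so species, photosynthesis type and seed source cannot be told apart. A single time point gives no phase or amplitude of a rhythm.

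Between 10987959 and 14865167 reads were counted per plant. Plants 13 and 15 of *M. arvensis* (Pearson correlation of log2 rpm 0.995) and plants 6 and 7 of *M. suffruticosa* (0.996) lay closer together than any other pair within a species (at most 0.9835). Both pairs differed by more than counting noise, with a chi-square per gene of 4.67 and 8.03 against at least 26.0 in the other pairs, and were counted as separate plants. Where summing each pair to 1 plant ended a call of the clock genes named at the start, this is given beside the result. Calls of all other genes come from the fit of single plants, and whether they hold with the pairs summed was not tested. Of the leaf markers RBCS1A, RCA and LHCA1 were abundant, LHCB1.1 and PSBO1 were listed at 0, and the summed level was 27179 to 38047 rpm in the *M. arvensis* plants, 30360 to 32507 rpm in *M. suffruticosa* and 37299 to 43332 rpm in *M. moricandioides*. Levels are given as rpm, the reads of a gene scaled to the same total of counted reads in every plant, which are not corrected for transcript length and are therefore compared between plants and not between genes. Fold changes and tests came from counts scaled further by TMM factors, from 0.834 in *M. arvensis* plant 9 to 1.166 in its plant 13. The lower the factor, the higher a plant stood on that scale relative to its rpm.

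At this hour *M. arvensis* leaves held 11 times as much PRR5 transcript and 7.22 times as much TOC1 transcript as *M. moricandioides* leaves, together with more PRR3, ELF3 and ELF4 and 0.478 times as much PRR9. In *M. suffruticosa* leaves ELF4 was 7.71-fold and PRR3 1.83-fold higher than in *M. moricandioides*, and no further member passed the test. With each close pair summed, only PRR5 and TOC1 were still called in *M. arvensis* against *M. moricandioides*. Only ELF4 was still called in *M. suffruticosa* against *M. moricandioides*, and only PRR5 between the intermediates. The counts below come from the fit of single plants. Calls were made by the quasi-likelihood F test of edgeR at a Benjamini–Hochberg adjusted p of 0.01 or less over 15570 transcripts. In *M. arvensis* against *M. moricandioides* 5 of 9 tested members were higher, where 18.2% of all tested transcripts were, and 1 was lower, where 16.7% were. In *M. suffruticosa* against *M. moricandioides* 2 were higher (10.1% of all tested) and 0 lower (8.82%). In *M. arvensis* against *M. suffruticosa* 3 were higher (9.4%) and 0 lower (9.92%). The median log2 fold change of the 9 members in these comparisons was 0.66, 0.32 and 0.05, beside 0.02, 0.01 and 0.01 over all tested transcripts. The comparisons share plants and are not independent of each other.

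**Figure D1:**
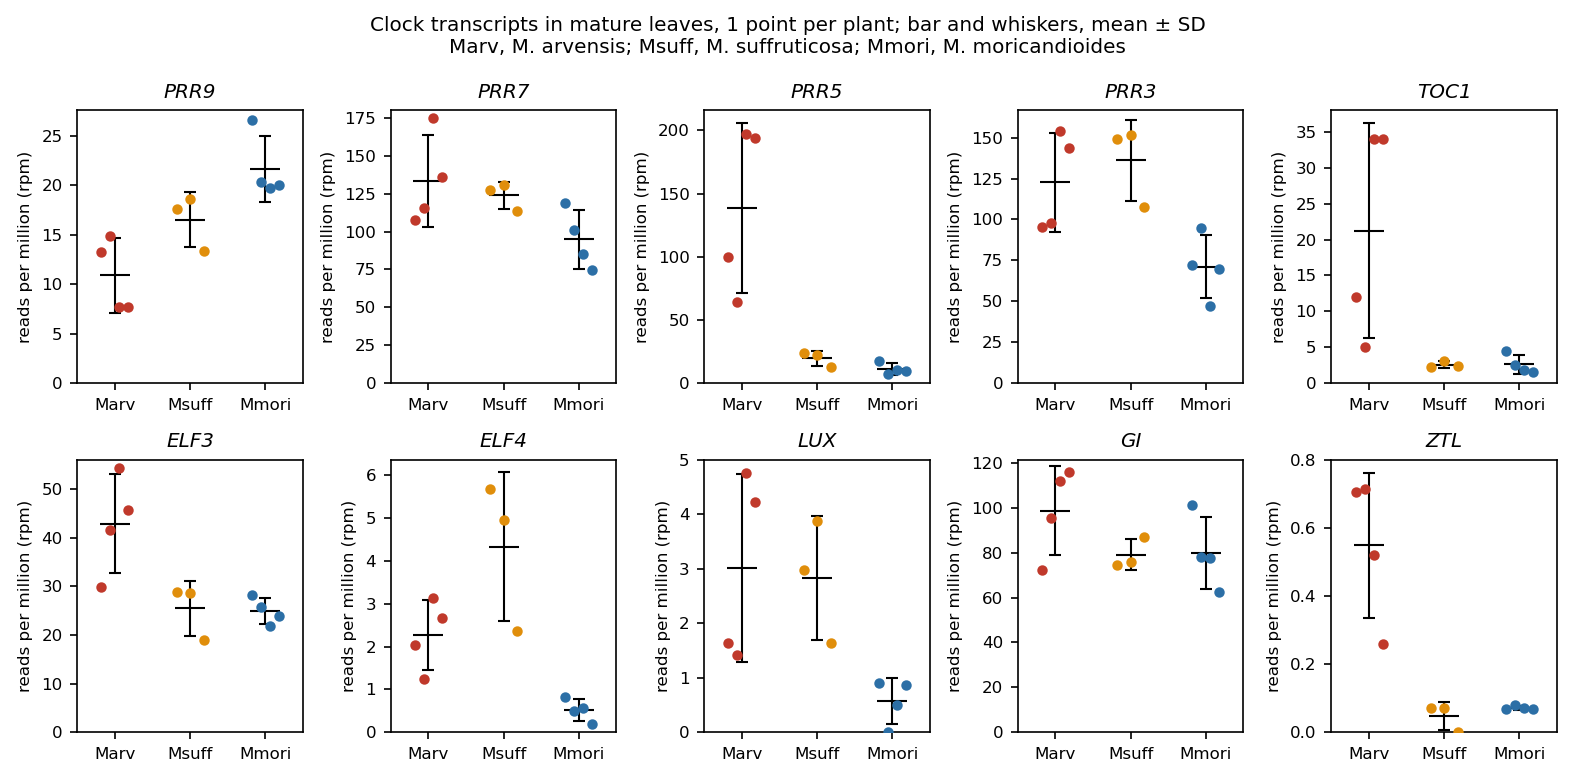
Level of each of the 10 clock transcripts in rpm (vertical axis, starting at 0, a separate scale for each gene), with 1 point per plant and a bar and whiskers for the mean ± SD; Marv is *M. arvensis* (n = 4), Msuff *M. suffruticosa* (n = 3) and Mmori *M. moricandioides* (n = 4). All *M. arvensis* plants lie above the other species for PRR5, from 64.1 to 197.4 rpm, and ELF4 spans 1.25 to 3.13 rpm in *M. arvensis* and 2.37 to 5.67 rpm in *M. suffruticosa*, ranges that overlap each other and lie above that of *M. moricandioides*.

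PRR5 represses CCA1 and LHY in the middle of the day in Arabidopsis. Its level was 99.6, 64.1, 197.4 and 193.7 rpm in *M. arvensis* plants 9, 12, 13 and 15. In *M. suffruticosa* plants 6, 7 and 8 it was 23.7, 22.3 and 12.9 rpm, and in *M. moricandioides* plants 6, 8, 12 and 15 it was 17.7, 7.26, 10.21 and 9.69 rpm. Every *M. arvensis* plant lay above every plant of the other species, whose ranges overlapped. The log2 fold change was 3.46 ± 0.36 (standard error) in *M. arvensis* against *M. moricandioides* (edgeR, adjusted p = 1.69e-05) and 2.74 ± 0.39 against *M. suffruticosa* (adjusted p = 0.000324). In *M. suffruticosa* against *M. moricandioides* it was 0.72 ± 0.36 and did not pass (adjusted p = 0.141). With each close pair summed PRR5 was still higher in *M. arvensis* than in *M. moricandioides* (3.30, adjusted p = 0.000166) and than in *M. suffruticosa* (2.70, adjusted p = 0.00493).

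TOC1, the last of the pseudo-response regulators to peak in Arabidopsis and a direct repressor of CCA1, varied widely among *M. arvensis* plants. It stood at 12.0, 4.99, 34.0 and 34.1 rpm in the *M. arvensis* plants, against 2.27, 3.11 and 2.37 rpm in *M. suffruticosa* and 4.51, 2.53, 1.88 and 1.48 rpm in *M. moricandioides*. Plants 13 and 15 of *M. arvensis* were high, whereas plant 12 lay just above the highest plant of *M. moricandioides*. The highest *M. arvensis* plant had 6.82 times the level of the lowest, against 1.37 times in *M. suffruticosa* and 3.05 times in *M. moricandioides*. The difference to *M. moricandioides* was 2.85 ± 0.50 in log2 (adjusted p = 0.000632), and 2.58 with each close pair summed (adjusted p = 0.00363). Against *M. suffruticosa* it was 2.93 ± 0.57 (adjusted p = 0.00223), a call that ended with the close pairs summed (2.67, adjusted p = 0.0237) and when any *M. suffruticosa* plant was left out (highest adjusted p = 0.0136). In *M. suffruticosa* against *M. moricandioides* it was −0.07 ± 0.56 (adjusted p = 0.933), an estimate whose sign depended on which plants were included.

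PRR9 is the earliest of the family and in Arabidopsis is induced by light in the morning. The *M. arvensis* plants had 13.3, 14.9, 7.67 and 7.67 rpm, the *M. suffruticosa* plants 17.6, 18.6 and 13.4 rpm and the *M. moricandioides* plants 26.6, 20.3, 19.7 and 20.0 rpm. Every plant of the intermediate species lay below every *M. moricandioides* plant, and the *M. arvensis* plants lowest in PRR9 were plants 13 and 15, which were highest in PRR5 and TOC1. The log2 fold change of −1.06 ± 0.27 in *M. arvensis* against *M. moricandioides* passed the test (adjusted p = 0.00662), but not with the close pairs summed (−0.90, adjusted p = 0.0263) or in the pairwise fit (adjusted p = 0.0144), and it passed in 4 of 11 fits without 1 plant (adjusted p 0.00165 to 0.021). It was lost without *M. arvensis* plant 13 or 15, *M. suffruticosa* plant 6 or 7, or *M. moricandioides* plant 6, 12 or 15. In *M. suffruticosa* against *M. moricandioides* it was −0.47 ± 0.29 (adjusted p = 0.239), and in *M. arvensis* against *M. suffruticosa* −0.60 ± 0.29 (adjusted p = 0.133). limma-voom with quality weights gave −1.25 for the last of these and called it (adjusted p = 3.54e-05).

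PRR3, which in Arabidopsis is expressed mainly in the vasculature and shields TOC1 from ZTL, was higher in both intermediate species. Its level was 95.2, 98.0, 153.9 and 143.9 rpm in the *M. arvensis* plants, 149.3, 151.8 and 107.8 rpm in *M. suffruticosa* and 72.2, 94.5, 47.4 and 70.03 rpm in *M. moricandioides*. No plant of the intermediate species fell to the range of *M. moricandioides*, although in rpm plants 9 and 12 of *M. arvensis* came near its plant 8. Against *M. moricandioides* the difference was 0.66 ± 0.18 in log2 for *M. arvensis* (adjusted p = 0.00995) and 0.87 ± 0.19 for *M. suffruticosa* (adjusted p = 0.00499). Both calls ended with the close pairs summed, at adjusted p = 0.0446 and 0.0368, and with library totals, at 0.0126 and 0.0114. The *M. arvensis* call lay at the threshold and ended also with RLE factors (0.0111), without a filter on low counts (0.0105), with a filter of 10 rpm (0.0134) and in the pairwise fit (0.017). It held in 3 of 11 fits without 1 plant (lost without *M. arvensis* plant 9, 13 or 15, *M. suffruticosa* plant 6 or 7, or *M. moricandioides* plant 6, 12 or 15), and the *M. suffruticosa* call in 7 of 11 (lost without *M. suffruticosa* plant 6 or 7 or *M. moricandioides* plant 6 or 15). The intermediate species differed from each other by −0.21 ± 0.20 (adjusted p = 0.424). The 4 vascular markers summed to 207 to 348 rpm in the *M. arvensis* plants, 175 to 394 rpm in *M. suffruticosa* and 186 to 268 rpm in *M. moricandioides*, a sum to which SUC2 adds most. Against *M. moricandioides* 0 of the 4 were higher and 2 lower in *M. arvensis* (XCP1 at −3.25, adjusted p = 0.000239, and SULTR2;2 at −1.04, adjusted p = 0.0065), while in *M. suffruticosa* 1 was higher (APL at 0.79, adjusted p = 0.00783) and 0 lower. In whole leaves more cells of a type and more RNA per cell cannot be told apart, and the part of cell types in these results was not tested.

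PRR7, a morning repressor that acts beside PRR9, differed little between the species. It had 107.5, 115.6, 175.1 and 135.9 rpm in the *M. arvensis* plants, 127.6, 130.6 and 113.9 rpm in *M. suffruticosa* and 118.6, 101.3, 85.3 and 74.4 rpm in *M. moricandioides*. The ranges of all 3 species overlapped. Log2 fold changes of 0.36 ± 0.15 for *M. arvensis* (adjusted p = 0.0551) and 0.32 ± 0.16 for *M. suffruticosa* (adjusted p = 0.134) against *M. moricandioides* did not pass the test.

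**Figure D2:**
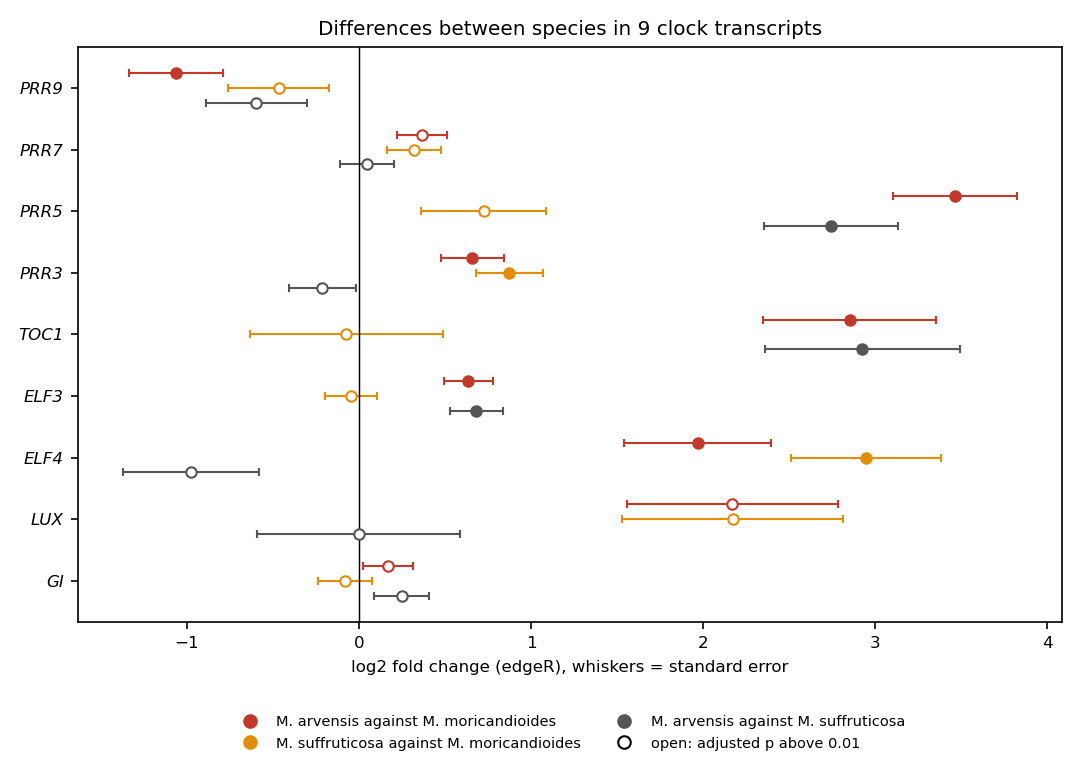
Log2 fold change (horizontal axis) and standard error (whiskers) of the 9 tested clock transcripts from the edgeR fit of 11 plants; red, *M. arvensis* against *M. moricandioides*; orange, *M. suffruticosa* against *M. moricandioides*; grey, *M. arvensis* against *M. suffruticosa*; filled points passed an adjusted p of 0.01. PRR5 and TOC1 lie between 2.74 and 3.46 in both *M. arvensis* comparisons, and ELF4 and LUX between 1.97 and 2.95 in both comparisons with *M. moricandioides*.

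The make-up of the pseudo-response regulator reads differed between the species. PRR5 made up 31.1% ± 7.01 (SD, n = 4) of the reads of the 5 genes in *M. arvensis*, against 6.46% ± 1.15 in *M. suffruticosa* (n = 3) and 5.58% ± 1.76 in *M. moricandioides* (n = 4). PRR9 took 2.98% ± 1.84 in the *M. arvensis* plants, 5.51% ± 0.179 in *M. suffruticosa* and 10.9% ± 1.30 in *M. moricandioides*. The ranges of the PRR9 share did not overlap between any of the species. This share also falls when the other members of the family rise. In rpm PRR9 itself overlapped between *M. arvensis* (7.67 to 14.9) and *M. suffruticosa* (13.4 to 18.6). For each 100 PRR9 reads there were 749, 431, 2573 and 2525 PRR5 reads in the *M. arvensis* plants, 135, 120 and 96.6 in the *M. suffruticosa* plants and 66.6, 35.7, 51.8 and 48.5 in the *M. moricandioides* plants. This ratio of a later to the earliest family member was lowest in *M. moricandioides* and highest in *M. arvensis*, with no overlap of plants. It sets the member most raised in *M. arvensis* against the sole member called lower there, and so repeats those differences. PRR5 reads per 100 PRR7 reads were 55.4 to 142 in *M. arvensis*. They overlapped between *M. suffruticosa* (11.3 to 18.5) and *M. moricandioides* (7.17 to 14.9). TOC1 reads per 100 PRR5 reads averaged 13.6 in *M. arvensis*, 14 in *M. suffruticosa* and 23.5 in *M. moricandioides*, with overlapping ranges. These shares are descriptions, given without a test.

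**Figure D3:**
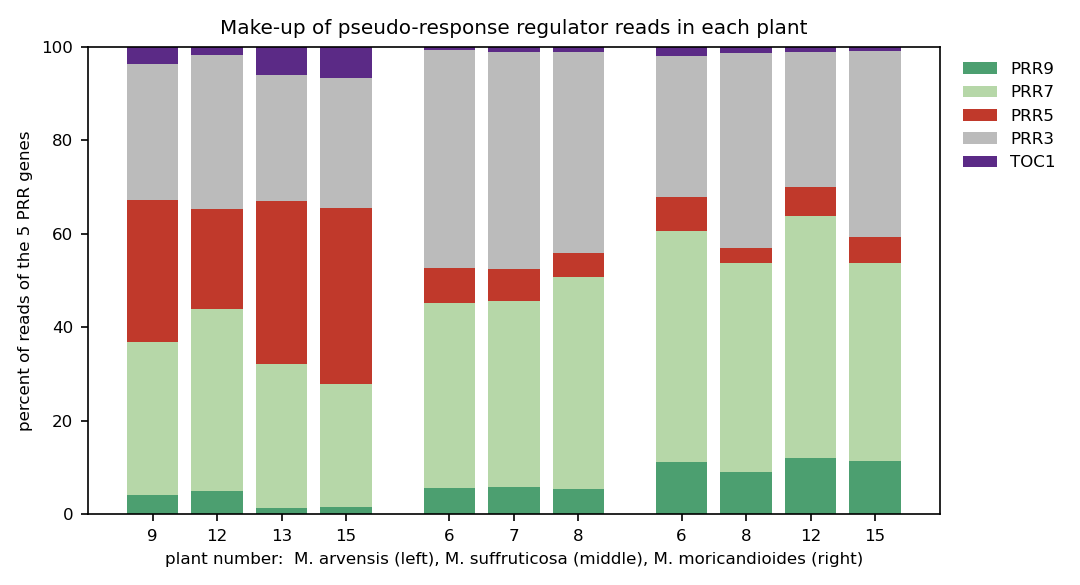
Percent of the reads of the 5 pseudo-response regulator genes that fell on each gene (vertical axis, 0 to 100), with 1 bar per plant: *M. arvensis* plants 9, 12, 13 and 15 on the left, *M. suffruticosa* plants 6, 7 and 8 in the middle and *M. moricandioides* plants 6, 8, 12 and 15 on the right. The red PRR5 part spans 21.5% to 37.6% in the *M. arvensis* plants, 5.16% to 7.38% in *M. suffruticosa* and 3.21% to 7.39% in *M. moricandioides*.

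ELF4, a small protein that promotes assembly and nuclear localisation of the evening complex, was low in all libraries, with 26, 14, 42 and 31 reads in the *M. arvensis* plants, 80, 70 and 26 in *M. suffruticosa* and 12, 6, 8 and 3 in *M. moricandioides*. These reads corresponded to 2.04, 1.25, 3.13 and 2.67 rpm in the *M. arvensis* plants, 5.67, 4.95 and 2.37 rpm in *M. suffruticosa* and 0.834, 0.489, 0.580 and 0.202 rpm in *M. moricandioides*. All plants of both intermediate species lay above all plants of *M. moricandioides*. The differences to *M. moricandioides* were 1.97 ± 0.43 in log2 for *M. arvensis* (edgeR, adjusted p = 0.00241) and 2.95 ± 0.44 for *M. suffruticosa* (adjusted p = 0.000415). With the close pairs summed the *M. suffruticosa* difference still passed (2.79, adjusted p = 0.00466) and that of *M. arvensis* did not (1.89, adjusted p = 0.011). The intermediates differed by −0.98 ± 0.39 in *M. arvensis* against *M. suffruticosa*, which did not pass (adjusted p = 0.0729).

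LUX, the DNA-binding MYB factor of the complex, also had few reads. It had 21, 16, 64 and 49 reads in the *M. arvensis* plants, 42, 55 and 18 in *M. suffruticosa* and 13, 0, 7 and 13 in *M. moricandioides*. In rpm this was 1.64, 1.43, 4.77 and 4.22 in the *M. arvensis* plants, 2.97, 3.89 and 1.64 in *M. suffruticosa* and 0.903, 0, 0.507 and 0.874 in *M. moricandioides*. No *M. moricandioides* plant reached the lowest plant of either intermediate. Against *M. moricandioides* log2 fold changes were 2.17 ± 0.61 for *M. arvensis* and 2.17 ± 0.64 for *M. suffruticosa*, and neither passed the threshold of 0.01 (adjusted p = 0.0112 and 0.0213). The likelihood ratio test of edgeR, DESeq2 and limma-voom each called LUX in both comparisons, and library totals in *M. arvensis*. The limma-voom estimates were larger, at 3.28 for *M. arvensis* and 3.19 for *M. suffruticosa*. Between the intermediates the difference was −0.0022 ± 0.59 (adjusted p = 0.998), with a sign that turned when libraries were scaled by their totals.

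ELF3, the scaffold of the complex, which also gates light input to the clock, was higher in *M. arvensis* than in either other species. The levels were 29.8, 41.5, 54.3 and 45.8 rpm in the *M. arvensis* plants, 28.9, 28.7 and 19.0 rpm in *M. suffruticosa* and 28.3, 25.9, 21.9 and 23.9 rpm in *M. moricandioides*. In rpm plant 9 of *M. arvensis* lay only just above the highest plants of the other species, but its TMM factor was the lowest, at 0.834. The log2 fold change in *M. arvensis* was 0.64 ± 0.14 against *M. moricandioides* (adjusted p = 0.00273) and 0.68 ± 0.15 against *M. suffruticosa* (adjusted p = 0.00531), and the difference of *M. suffruticosa* to *M. moricandioides* was −0.05 ± 0.15 (adjusted p = 0.844), which became 0.03 with library totals. With the close pairs summed the *M. arvensis* differences were 0.59 (adjusted p = 0.013) and 0.73 (adjusted p = 0.0271). The first was also lost without *M. arvensis* plant 13 or *M. moricandioides* plant 8 or 12, and the second without *M. arvensis* plant 12, 13 or 15 or any *M. suffruticosa* plant, with library totals (adjusted p = 0.0216) and in the pairwise fit (adjusted p = 0.0146). ELF4 made up 4.75% ± 1.37 of the reads of the complex in the *M. arvensis* plants, 12.9% ± 2.43 in *M. suffruticosa* and 1.99% ± 0.88 in *M. moricandioides*.

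GI, which in Arabidopsis links the clock to flowering and stabilises ZTL, did not pass the test in any comparison. It had 72.1, 95.2, 111.8 and 115.6 rpm in the *M. arvensis* plants, 74.5, 75.7 and 86.8 rpm in *M. suffruticosa* and 101.1, 78.1, 77.7 and 62.6 rpm in *M. moricandioides*. The ranges overlapped throughout. Log2 fold changes were 0.17 ± 0.15 in *M. arvensis* against *M. moricandioides* (adjusted p = 0.359), −0.08 ± 0.16 in *M. suffruticosa* (adjusted p = 0.728) and 0.25 ± 0.16 in *M. arvensis* against *M. suffruticosa* (adjusted p = 0.245).

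ZTL had 9, 8, 7 and 3 reads in the *M. arvensis* plants, 1, 1 and 0 in *M. suffruticosa* and 1 in each *M. moricandioides* plant. It was removed by the filter on low counts and has no test in the fit reported here. Without that filter edgeR called ZTL higher in *M. arvensis* than in *M. moricandioides* (log2 fold change 2.69, adjusted p = 0.00463) and than in *M. suffruticosa* (3.22, adjusted p = 0.00738), on the few reads given above. Over all plants of a species the share of reads was 7.62 times as large in *M. arvensis* as in *M. moricandioides* (27 against 4 reads, exact 95% interval 2.65 to 30, which covers counting error only). LKP2, the closest relative of ZTL in Arabidopsis with the same domains, was named for this reason after its values were seen. It took 593, 457, 925 and 808 reads in the *M. arvensis* plants, 373, 351 and 283 in *M. suffruticosa* and 309, 251, 348 and 300 in *M. moricandioides*. The LKP2 counts therefore exceeded those of ZTL in every plant, and how the best-hit counting divided reads between these relatives was not tested. LKP2 was 1.23 higher in log2 in *M. arvensis* than in *M. moricandioides* (edgeR, adjusted p = 8.18e-05) and 1.07 higher than in *M. suffruticosa* (adjusted p = 0.000804).

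Another 45 clock genes were listed around the members, of which 13 had no read in any plant, FKF1, BOA and GRP8 among them. In all 14607 gene models were at 0 throughout, and the models held by the authors' reference set are not given, so a 0 was not read as absence. Relatives of genes named here were among those at 0: EFL2 and EFL3 beside EFL4, LWD2 beside LWD1, LNK4 beside LNK3, GRP8 beside GRP7 and BOA beside LUX. Whether their reads were counted at the named relative was not tested. Of 7 tested morning regulators 0 were higher and 2 lower in *M. arvensis* against *M. moricandioides* (median log2 fold change −0.65, beside 0.02 over all tested transcripts, of which 18.2% were higher and 16.7% lower), and 0 were called in *M. suffruticosa* (median −0.23, beside 0.01, with 10.1% higher and 8.82% lower). CCA1, the MYB repressor of evening genes, had 64.6, 123.1, 66.0 and 58.0 rpm in the *M. arvensis* plants, 83.4, 75.01 and 73.4 rpm in *M. suffruticosa* and 130.6, 136.2, 82.2 and 109.7 rpm in *M. moricandioides*. Its *M. arvensis* plant 12 was high, and this was the plant lowest in PRR5 and TOC1. CCA1 differed from *M. moricandioides* by −0.65 in log2 for *M. arvensis* (adjusted p = 0.039) and by −0.63 for *M. suffruticosa* (adjusted p = 0.0817), neither past the threshold. LHY, its close relative, had 9.00, 18.7, 19.8 and 11.6 rpm in the *M. arvensis* plants, 18.1, 20.1 and 20.2 rpm in *M. suffruticosa* and 41.2, 29.0, 14.7 and 20.4 rpm in *M. moricandioides*. Its groups overlapped, with log2 fold changes of −0.96 (adjusted p = 0.0126) and −0.49 (adjusted p = 0.228).

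TOC1 and CCA1, which repress each other in Arabidopsis, were set against each other within plants. There were 18.5, 4.06, 51.5 and 58.7 TOC1 reads for each 100 CCA1 reads in the *M. arvensis* plants, 2.72, 4.15 and 3.22 in *M. suffruticosa* and 3.46, 1.86, 2.29 and 1.35 in *M. moricandioides*. Plant 12 of *M. arvensis* lay within the range of *M. suffruticosa*, and the other *M. arvensis* plants lay above all plants of both species.

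The morning regulators that were lower in *M. arvensis*, named after their values were seen, were LNK2 (−1.82, adjusted p = 0.000278) and LNK3 (−1.59, adjusted p = 0.00128). LNK proteins act in Arabidopsis as coactivators of RVE8 at PRR5 and TOC1. In *M. suffruticosa* their log2 fold changes were −1.17 (adjusted p = 0.0118) and 0.50 (adjusted p = 0.256). RVE8 itself was at −0.52 for *M. arvensis* (adjusted p = 0.0439) and −0.23 for *M. suffruticosa* (adjusted p = 0.435). None of these 3 genes passed the test in *M. suffruticosa* by edgeR.

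Of 5 tested paralogues of the members 3 were higher in *M. arvensis* and 2 in *M. suffruticosa* against *M. moricandioides*, with 0 lower, where 18.2% and 10.1% of all tested transcripts were higher. EFL4, a relative of ELF4, was the sole gene of these other lists called in both comparisons. It had 32.6, 35.7, 34.3 and 25.9 rpm in the *M. arvensis* plants, 39.2, 32.5 and 22.8 rpm in *M. suffruticosa* and 15.1, 14.4, 17.7 and 12.7 rpm in *M. moricandioides*. All plants of the intermediates lay above those of *M. moricandioides*, and the log2 fold change was 0.99 in both (adjusted p = 0.00169 for *M. arvensis* and 0.00447 for *M. suffruticosa*). Of the others, chosen after their values were seen, EFL1 was 2.89 higher in *M. arvensis* (adjusted p = 0.000304), and EEC, a relative of ELF3, was 3.79 higher in *M. suffruticosa* (adjusted p = 0.000636).

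Of 12 tested partners and modulators 2 were higher and 1 lower in *M. arvensis* against *M. moricandioides*, and 0 were called in *M. suffruticosa*, shares no larger than the 18.2% higher and 16.7% lower, and the 10.1% and 8.82%, of all tested transcripts. CHE, a TCP factor that binds the CCA1 promoter together with TOC1, was the lower one (−1.41, adjusted p = 3.55e-05), and LWD1, an activator of clock genes, was higher (1.41, adjusted p = 1.8e-05). Of 5 tested outputs 1 was higher and 1 lower in *M. arvensis*, which is close to the same background. The higher one was GRP7, an RNA-binding protein of a clock-driven feedback loop. It had 1076.7, 1033.7, 2450.7 and 2308.8 rpm in the *M. arvensis* plants, 358.9, 365.3 and 309.2 rpm in *M. suffruticosa* and 350.4, 281.9, 221.7 and 312.3 rpm in *M. moricandioides*. As for PRR5 and TOC1, plants 13 and 15 of *M. arvensis* were highest, with a log2 fold change of 2.39 against *M. moricandioides* (adjusted p = 1.48e-05). CHE, LWD1 and GRP7 were named after their values were seen.

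**Figure D4:**
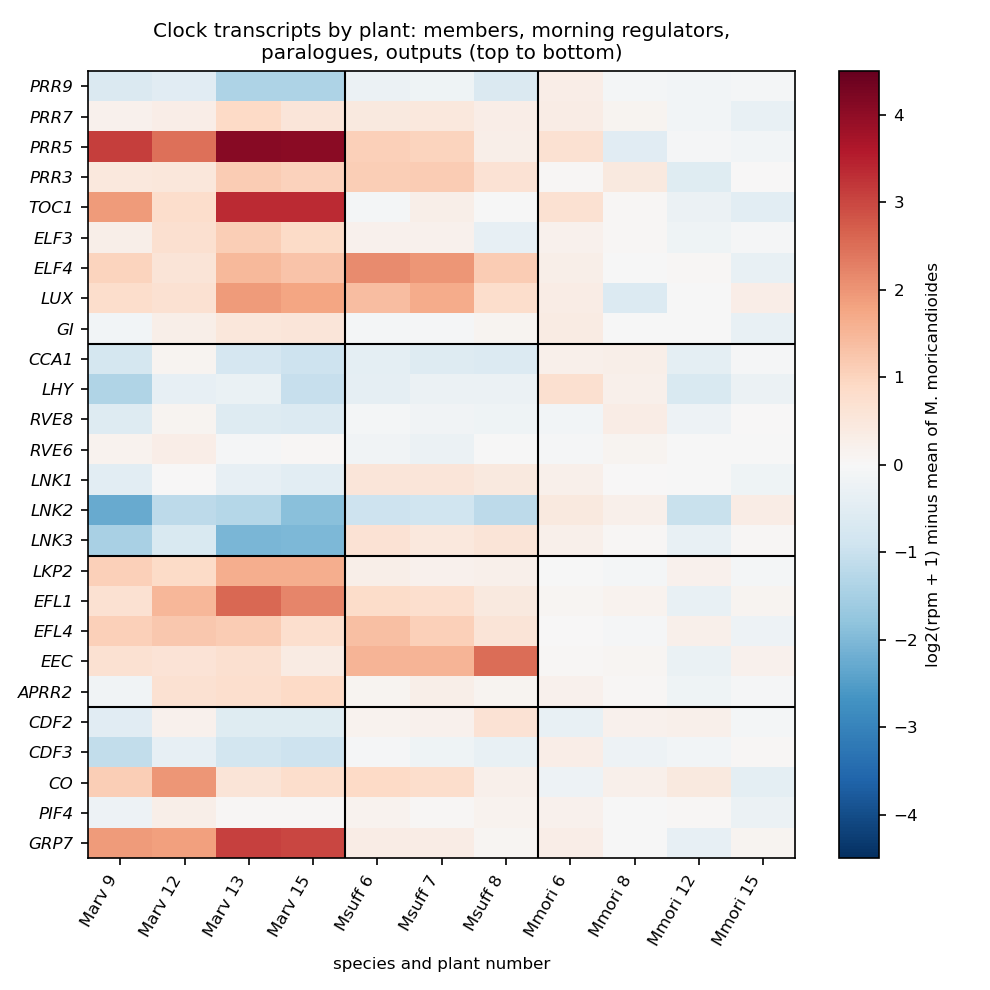
Level of clock transcripts (rows: tested members, then tested morning regulators, paralogues and outputs) in each plant (columns) as log2(rpm + 1) minus the mean of *M. moricandioides*; red is higher and blue lower. Plants 13 and 15 of *M. arvensis* (Marv) carry the strongest red for PRR5, TOC1 and GRP7, and the 3 *M. suffruticosa* plants (Msuff) are red for ELF4 and EEC.

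The transcripts whose pattern over the 11 plants was most like that of PRR5 were AT3G15840, described as post-illumination chlorophyll fluorescence increase (Pearson r = 0.99), AT2G15695, a protein of unknown function (r = 0.982), and AT5G23240, a DNAJ domain protein (r = 0.981). AT3G15840 averaged 2040 ± 502 rpm in the *M. arvensis* plants, 533 ± 156 rpm in *M. suffruticosa* and 402 ± 54.3 rpm in *M. moricandioides*. Those most like ELF4 were AT1G03310, debranching enzyme 1 (r = 0.971), AT2G04400, an aldolase-type TIM barrel protein (r = 0.968), and AT1G79310, metacaspase 7 (r = 0.967). AT1G03310 averaged 79.7 ± 11.2 rpm in the *M. arvensis* plants, 162 ± 77.8 rpm in *M. suffruticosa* and 34.5 ± 7.47 rpm in *M. moricandioides*. These correlations, over 9071 transcripts of at least 10 rpm, describe plants that share species and library, and largely follow the differences between species.

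Markers of other cell types were read beside these results. Of the guard cell markers 3 of 3 tested were higher in *M. arvensis* and 0 of 3 in *M. suffruticosa* against *M. moricandioides*, where 18.2% and 10.1% of all tested transcripts were. KAT1 was listed at 0, and the guard cell markers summed to 41.6 to 75.2 rpm in the *M. arvensis* plants, 34.3 to 41.5 rpm in *M. suffruticosa* and 27.1 to 31.1 rpm in *M. moricandioides*. Epidermis markers summed to 95.6 to 166 rpm in *M. arvensis*, to 214 to 237 rpm in *M. suffruticosa* and to 141 to 240 rpm in *M. moricandioides*, with ATML1 and CER1 at 0. Of the tested ones PDF1 was lower in *M. arvensis* against *M. moricandioides* (−5.19, adjusted p = 0.00218), and FDH, which makes up most of the sum, was lower there than in *M. suffruticosa* (−0.89, adjusted p = 0.00314). Flower and root markers stayed at 1.49 to 6.42 rpm in the *M. arvensis* plants, 0.273 to 1.13 rpm in *M. suffruticosa* and 0.408 to 0.652 rpm in *M. moricandioides*, and the flower gene PI was higher in *M. arvensis* (4.08, adjusted p = 0.000157). Dividing cell markers summed to 3.73 to 5.09 rpm in *M. arvensis*, to 2.55 to 3.00 rpm in *M. suffruticosa* and to 2.36 to 4.49 rpm in *M. moricandioides*. Their part in the clock differences was not tested.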

How the data were processed

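Single-end reads (100 bp) were mapped by the authors with BLAT, in protein space, to a reduced set of TAIR10 coding sequences, and each read was counted at its best hit. The deposited counts per gene are raw, and the rpm deposited beside them are the same counts scaled by the authors to an equal total in each library. A table of the authors' own comparisons (log2 fold changes with p-values) and a table of read totals were not used. The versions of BLAT, CASAVA and of the edgeR run by the authors are not known here.

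Counts were fitted in R 4.3.3 with edgeR 4.0.16 (filterByExpr with a minimum count of 10, TMM, quasi-likelihood F test, 1 term per species, 11 libraries, Benjamini–Hochberg over 15570 transcripts, threshold 0.01). The biological coefficient of variation was 0.259. Labels name each library as a plant, so p-values measure the spread between single plants of 1 seed source. In counts simulated for 14203 transcripts in *M. arvensis* against *M. moricandioides* the test recovered 36% of 2-fold and 96% of 4-fold changes with 1 false call. Far fewer transcripts were changed in the simulation than were called in the data. Transcripts as low as ELF4 and LUX in *M. moricandioides* were left out of it. These rates are therefore a check of the procedure and not the power or error rate of the reported test. Intervals for ZTL are exact conditional binomial intervals.

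The named genes are the 10 members, CCA1, LHY, listed clock genes called against *M. moricandioides* in both intermediate species, and the 3 transcripts most correlated, as log2(rpm + 1), with the member of largest change in each of these comparisons. Genes named outside this rule are marked in the text, apart from RVE8, genes listed at 0 and the cell type markers. Markers given with an adjusted p were picked by their calls. Members and lists were chosen with earlier results of these data known. Alternatives were RLE factors (edgeR), library totals, TMM computed without the top 100 transcripts, other filters on low counts, the likelihood ratio test, DESeq2 1.42.0, limma-voom (limma 3.58.1), pairwise fits, a threshold of 0.05, a replicate block, each plant left out, and the 2 close pairs of libraries summed. Summaries used Python 3.11.15 with numpy 2.4.6, scipy 1.17.1, pandas 2.3.3 and matplotlib 3.10.9.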

Additional observations from a re-analysis of the deposited data

Results flagged for a closer look

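PRR9 in *M. moricandioides* plant 6 stood apart from the rest of its group, at 26.6 rpm against 19.7 to 20.3 rpm in the other 3 plants, a gap of 0.912 of the whole range of the group. Of 20 groups of 4 plants checked, 1 was picked out in this way, and chance picks out about 1 group in 20. Without this plant the log2 fold change of PRR9 in *M. arvensis* against *M. moricandioides* was -0.97 (edgeR, adjusted p = 0.021) and no longer passed the test.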

How the results depend on the processing

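Direction and call held for 523 of 603 combinations of gene, comparison and alternative. In 54 a call was lost, in 13 gained and in 13 the sign turned, the last among values that never passed the test. The 523 include results not called in the main fit, for which staying uncalled counted as held. They also include the looser threshold, at which no call could be lost. The total therefore does not measure how firm the calls were. In *M. arvensis* against *M. moricandioides* the PRR3 call was lost in 15 of 23 alternatives, that of PRR9 in 10 of 23 and that of PRR5 in 0 of 23. In *M. arvensis* against *M. moricandioides* the 6 calls became 3 with a filter of 10 rpm, which leaves TOC1, ELF4 and LUX untested, 2 with the close pairs summed and 3 to 7 with 1 plant left out. They were 3 without *M. arvensis* plant 13 or *M. moricandioides* plant 12, and PRR5, TOC1 and ELF4 passed in all 11 of these fits. In *M. suffruticosa* against *M. moricandioides* the 2 calls became 1 with library totals, 1 with the filter of 10 rpm, 1 with the close pairs summed and 1 to 2 with 1 plant left out, ELF4 passing in all 11. In *M. arvensis* against *M. suffruticosa* the 3 calls became 6 with limma-voom (PRR9, ELF4 and GI added), 1 with the close pairs summed and 1 to 3 with 1 plant left out, where PRR5 passed in all 11 and was the sole call without each *M. suffruticosa* plant in turn. The cause of these changes was not tested.

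The labels do not say that plants of the same number in different species were paired. Same-numbered plants deviated from their group means with correlations of 0.0083 to 0.030, and plants of different number with -0.122 to 0.0947. Taken over all tested transcripts, these correlations cannot decide whether single genes varied together by plant number. A replicate block on these numbers left 1 call (PRR5) in *M. arvensis* and 0 in *M. suffruticosa* against *M. moricandioides*, where ELF4 had adjusted p = 0.0517. That fit drew only on plants whose number also occurs in *M. moricandioides*, plants 12 and 15 of *M. arvensis* and plants 6 and 8 of *M. suffruticosa*. It left little to measure the spread between plants. No paired analysis was possible between the intermediates because they share no plant number.

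Log2 fold changes that turned sign are given with their range over the fits without 1 plant. In *M. suffruticosa* against *M. moricandioides* TOC1 ranged over -0.27 to 0.31 (positive without plant 6 of either species), ELF3 over -0.14 to 0.0975 (positive without *M. suffruticosa* plant 8, at 0.0331 with library totals and at 0.0521 with limma-voom) and GI over -0.19 to 0.0310 (positive without *M. moricandioides* plant 6). Between the intermediates PRR7 ranged over -0.0363 to 0.1062 (negative without *M. arvensis* plant 13) and LUX over -0.25 to 0.25 (positive without *M. arvensis* plant 9 or 12 or *M. suffruticosa* plant 6 or 7, at 0.0847 with library totals and at 0.0912 with limma-voom). Library totals moved the median of all tested transcripts by 0.13, 0.07 and 0.06 in the 3 comparisons, with 3127 higher and 2012 lower in *M. arvensis* against 2840 and 2604 with TMM, and 1581 higher and 1065 lower in *M. suffruticosa* against 1577 and 1373. Depth limits ELF4, LUX and ZTL, which had 0 to 80 reads a plant.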
